A study of Homo sapiens with 11 samples.

Results

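The genes described here are named for proteins of the mitochondrial ribosome. They were chosen as every listed gene whose symbol is MRPL or MRPS followed by a number and, in some, a letter A to C. The symbol alone does not show that each product is part of the particle. In the table of PHF19 knockdown 77 of 14458 listed genes met that rule, 48 of them MRPL genes, named for the large subunit, and 29 MRPS genes, named for the small subunit. In the table of PHF19 overexpression 71 of 11062 listed genes met it, 46 MRPL and 25 MRPS. The 71 are all among the 77, and MRPL53, MRPL57, MRPS6, MRPS18B, MRPS24 and MRPS28 are listed in the knockdown table only.

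RNA was sequenced from ARP1 cells, an established line of multiple myeloma cells producing IgA kappa, to ask what PHF19, an accessory subunit of Polycomb repressive complex 2, does to gene expression. The knockdown comparison set 3 libraries of cells with an shRNA against PHF19 (shRNA 1 to 3) against 3 with a scramble control (scramble 1 to 3). The overexpression comparison set 2 libraries of cells infected with lentivirus carrying the PHF19 open reading frame in the PCDH plasmid (OE 1 and 2) against 3 with the empty PCDH vector (EV 3 to 5). All 11 libraries come from this single line, the virus was packaged in HEK293T cells, sorting is stated for the overexpressing cells alone, and neither the delivery of the shRNA nor whether its 3 samples carry 1 hairpin or several is given. Every value below is an expression value of the FPKM type, a read count scaled by gene length and library size, and every log2 fold change is a difference of group means of log2(value + 1). A gene was called when limma gave it an adjusted p (Benjamini-Hochberg, over all genes tested in that table) under 0.05. In bulk RNA, fewer cells of a kind and less RNA per cell cannot be told apart.

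The mitochondrial ribosome translates the few mRNAs of the mitochondrial genome, all of which encode subunits of the oxidative phosphorylation complexes. Its proteins are encoded in the nucleus, made on cytosolic ribosomes and imported, and the large subunit forms the peptide bonds while the small subunit holds and decodes the mRNA. Many of its proteins are homologs of bacterial ribosomal proteins, and others occur only in mitochondria. The names follow an older convention: MRPS30 and MRPS18A are named for the small subunit, but structures of the mammalian particle place both in the large one.

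PHF19 itself had values of 112.55, 151.69 and 122.95 in the scramble libraries and 75.2, 103 and 108 in the shRNA libraries. The groups did not overlap, and the log2 fold change was -0.44 ± 0.17 (SE, n = 3 and 3; limma adjusted p = 0.147), which did not pass; with the replicate number as a block the adjusted p was 0.0445. In the overexpression table PHF19 had values of 111, 119 and 115 with the empty vector and 227 and 213 in the OE libraries, a rise of 0.93 ± 0.09 on the log2 scale (SE, n = 3 and 2; limma adjusted p = 0.0438). That call ended when only genes with no 0 in any library were tested (limma adjusted p = 0.156) and without EV 3, EV 4, OE 1 or OE 2 (adjusted p from 0.156 to 0.318). Plasma cell markers stood at unlike levels. In the knockdown table SDC1, the surface proteoglycan syndecan-1, lay between 120 and 256 and CD38 between 2.16 and 8.43. MS4A1 of B cells, CD3E of T cells and CD14 of monocytes were at or under 0.96 in each library of that table. PAX5, another listed B cell marker, lay between 1.64 and 2.66 there, and LYZ of the myeloid list between 0.56 and 1.71. In the overexpression table SDC1 lay between 160 and 291, while TNFRSF17 and MZB1 were listed at 0 in EV 3 and EV 4 and at 105 and 422 in EV 5. LYZ, a myeloid marker, was at or under 0.40 there except for 6.17 in OE 2. Library sums of the values ran from 470294 to 526068 in the knockdown table. In the overexpression table they were 426112, 426016 and 425155 in EV 3 to 5 and 498485 and 502349 in OE 1 and 2. Genes listed at 0 numbered 944 to 961 in the EV libraries and 762 to 797 in the OE libraries. The part of this offset between OE and EV in the results below was not tested. The deposited values give no read numbers, so depth is unknown.

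For a first look at promoters, 4 members were chosen by their knockdown values. MRPL47, MRPS18A and MRPL20 lay lower in every shRNA library, and MRPL24 had the highest fold change of the members in the knockdown table. Their promoters are printed first, as examples. Each is the stretch of 250 bases before the RefSeq start of the gene (GRCh38.p14, all on the minus strand), written 5′ to 3′ along the gene. Capitals mark matches on either strand to CCGGAAG, a core that ETS factors bind, or to AAGATGGC, a core that YY1 binds. MRPL47 lies at chr3:179604639-179604888, MRPS18A at chr6:43687792-43688041, MRPL20 at chr1:1407294-1407543 and MRPL24 at chr1:156741089-156741338.
MRPL47: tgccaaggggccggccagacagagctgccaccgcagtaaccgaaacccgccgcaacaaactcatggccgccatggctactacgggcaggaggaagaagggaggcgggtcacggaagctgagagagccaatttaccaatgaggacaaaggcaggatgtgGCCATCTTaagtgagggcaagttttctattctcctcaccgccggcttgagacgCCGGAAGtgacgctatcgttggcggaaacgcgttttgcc
MRPS18A: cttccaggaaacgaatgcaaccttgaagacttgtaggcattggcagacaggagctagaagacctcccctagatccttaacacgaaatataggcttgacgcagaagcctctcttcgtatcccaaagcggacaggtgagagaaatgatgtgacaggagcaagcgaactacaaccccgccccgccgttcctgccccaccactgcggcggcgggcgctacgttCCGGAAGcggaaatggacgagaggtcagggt
MRPL20: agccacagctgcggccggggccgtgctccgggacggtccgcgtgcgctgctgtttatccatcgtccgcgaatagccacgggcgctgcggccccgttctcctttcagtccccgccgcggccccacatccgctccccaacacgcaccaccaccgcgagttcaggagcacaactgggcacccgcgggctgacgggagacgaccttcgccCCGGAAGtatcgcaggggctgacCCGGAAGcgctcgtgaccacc
MRPL24: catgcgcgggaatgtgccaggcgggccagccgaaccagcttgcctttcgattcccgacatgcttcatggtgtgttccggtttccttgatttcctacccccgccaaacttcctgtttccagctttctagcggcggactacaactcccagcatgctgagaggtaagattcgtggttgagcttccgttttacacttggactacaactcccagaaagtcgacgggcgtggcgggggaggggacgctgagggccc

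In these 250 bases MRPL47 held 1 match to the ETS core and 1 to the YY1 core, MRPS18A held 1 ETS match, MRPL20 held 2, and MRPL24 held none. The window of 300 bases used below, which runs 50 bases past the start, also held 1 YY1 match each for MRPS18A and MRPL20. RefSeq promoters matched 68 of the 77 members, and the window searched for all of them was 300 bases, 250 before to 50 after the start. MRPS28 is not among the 68. Of other members lower in every shRNA library, MRPL4, MRPL18 and MRPS5 held neither core, while MRPS12 held both. Of members with a fold change above 0, MRPS21 held 2 ETS matches, and MRPS14 and MRPS25 held neither core. Whether a match goes with the fold change was not tested. The ETS core was present in 28 of the 68 (41.2%), against 20.9% of the promoters of 8567 genes tested in the knockdown table and 10.7% of all 27305 promoters. The YY1 core was present in 20 of the 68 (29.4%), against 6.01% of the tested genes' promoters and 3.03% of all. Both shares were higher than among the tested genes. Genes of both subunits carried the cores, 16 large and 12 small for ETS and 12 large and 8 small for YY1. The NRF1 core CGCATGCG was in 3 members (4.41%) and 4.2% of tested genes, the E-box CACGTG in 6 (8.82%) and 10.7%, and the ATF4-CEBP composite TGATGNAA in 1 (1.47%) and 1.45%. The E-box reads the same on both strands, and none of these letter strings contains another. A match is a description of the letters in the window and does not show a bound site.

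In the knockdown table the mitochondrial ribosomal protein genes stood low together but by small steps. Of the 77 members, 73 had a log2 fold change below 0 and 4 above it, while of all 10900 genes tested 45.6% lay below 0 and 54.4% above. The median log2 fold change over the members was -0.24, against 0.03 over all genes tested, and the members ran from -0.80 for MRPS28 to 0.15 for MRPL24. Called lower were 3 members, MRPS28, MRPL47 and MRPS18A, and called higher 0; at an unadjusted p under 0.05 limma gave 21 members (27.3%), all lower. At that unadjusted threshold stood 24.1% of all genes tested, 8.74% lower and 15.3% higher. With both directions counted together the members' share was near that of all genes, while the share lower was 27.3% beside 8.74%. The share called lower at the adjusted threshold was 3.9% among the members, beside 1.28% of all genes tested; 4.24% of all genes tested were called higher. Of all genes tested 5.51% were called in either direction, 462 higher and 139 lower; that split was 377 and 206 under quantile normalisation. No overlap between the groups, with all shRNA libraries lower, was seen for 28 members, 17 large and 11 small, and for 13.0% of all genes tested. No member lay higher in all shRNA libraries, as 18.9% of all genes tested did.

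**Figure D1:**
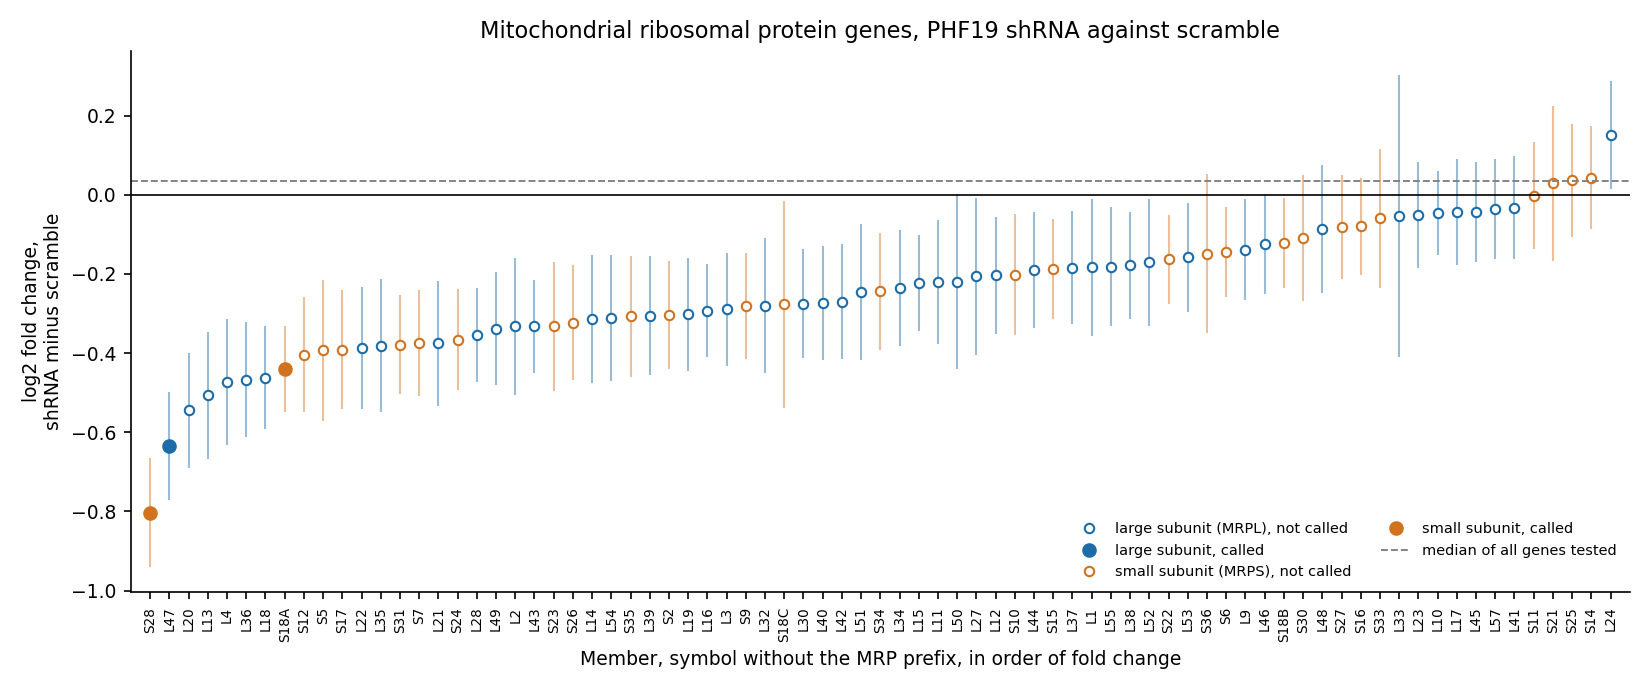
Log2 fold change, shRNA minus scramble, of each of the 77 members in rising order, with bars of 1 SE (n = 3 and 3), large subunit genes in one colour and small subunit genes in the other. Filled points are the 3 called members and the dashed line is the median of all genes tested, 0.03; 73 points lie below 0.

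MRPS28, a small subunit protein, had the lowest fold change. Its values were 49.97, 43.73 and 36.28 in the scramble libraries and 25.7, 23.2 and 23.8 in the shRNA libraries. Each shRNA library lay below each scramble library, and MRPS28 fell by 0.80 ± 0.14 on the log2 scale (SE, n = 3 and 3; limma adjusted p = 0.0168), a drop of the mean from 43.3 ± 6.85 to 24.2 ± 1.27 (SD). Leaving out scramble 1 or scramble 2 ended its call (adjusted p = 0.0703 and 0.0752). MRPL47, a large subunit protein whose bacterial homolog sits at the exit of the peptide tunnel, had values of 73.4, 67.0 and 59.7 with the scramble and 36.7, 47.7 and 43.8 with the shRNA. The groups did not overlap, and MRPL47 fell by 0.63 ± 0.14 on the log2 scale (SE, n = 3 and 3; limma adjusted p = 0.0309). MRPS18A, one of the paralogs of bacterial S18 and part of the large subunit in structures, had the least scatter of the called genes among the scramble libraries: 74.9, 76.5 and 75.2 with the scramble against 52.6, 56.1 and 57.7 with the shRNA. It fell by 0.44 ± 0.11 (SE, n = 3 and 3; limma adjusted p = 0.0471). Leaving out scramble 1, scramble 2, scramble 3 or shRNA 3 ended the call of MRPL47 (adjusted p from 0.0598 to 0.116), and leaving out any of these or shRNA 2 ended that of MRPS18A (0.0946 to 0.16). The call of MRPS18A also ended under quantile normalisation (adjusted p = 0.0551), without trended and robust variances (0.0709) and with no filter on low values (0.0652), and that of MRPL47 with no filter (0.0601).

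Which members passed depended on the libraries in the fit. Without scramble 1 or without scramble 2, 0 of the 77 members were called by limma, beside 0.0459% and 0.0183% of all genes tested called lower; at the adjusted threshold these fits called 66 and 65 genes in either direction. Without scramble 3 the called members were MRPL20 and MRPS28 (0.239% of all genes tested called lower), without shRNA 2 MRPL47 and MRPS28 (0.55%), without shRNA 3 MRPS28 alone (0.248%), and without shRNA 1 the same 3 as with every library (1.21%). With the replicate number as a block 6 members were called lower (3.68% of all genes tested were, and 11.9% were called in either direction), the 3 above plus MRPL20, MRPL18 and MRPL36. With 1 library left out between 65 and 76 members lay below 0. Of the 73 below 0 with every library, 59 were below 0 in all 6 of these fits and 14 lay above 0 in at least 1.

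Further members without overlap did not pass the unblocked test. MRPL20, homolog of a bacterial protein that binds rRNA early in assembly, had values of 240, 227 and 174 against 145, 153 and 137 (log2 fold change -0.54 ± 0.14 SE, n = 3 and 3; limma adjusted p = 0.0564, blocked 0.0225, and 0.0495 under quantile normalisation). MRPL18, homolog of a bacterial rRNA-binding protein of the central protuberance, had 82.1, 81.2 and 72.6 against 48.7, 62.2 and 60.3 (log2 fold change -0.46; limma adjusted p = 0.0686, blocked 0.0408). MRPL36, a small protein of the large subunit, had 126, 120 and 89.3 against 76.8, 81.6 and 80.4 (log2 fold change -0.47; limma adjusted p = 0.0886, blocked 0.047). In all 3 genes the lowest scramble library still lay above the highest shRNA library. Other members without overlap were MRPL13 at -0.51 and MRPL4, whose bacterial homolog lines the peptide tunnel, at -0.47, both log2 fold changes. MRPS12, at the decoding centre, stood at -0.40, and MRPS5, near the entry of the mRNA channel, at -0.39; the adjusted p of these 4 ran from 0.094 for MRPL13 to 0.208 for MRPS5.

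**Figure D2:**
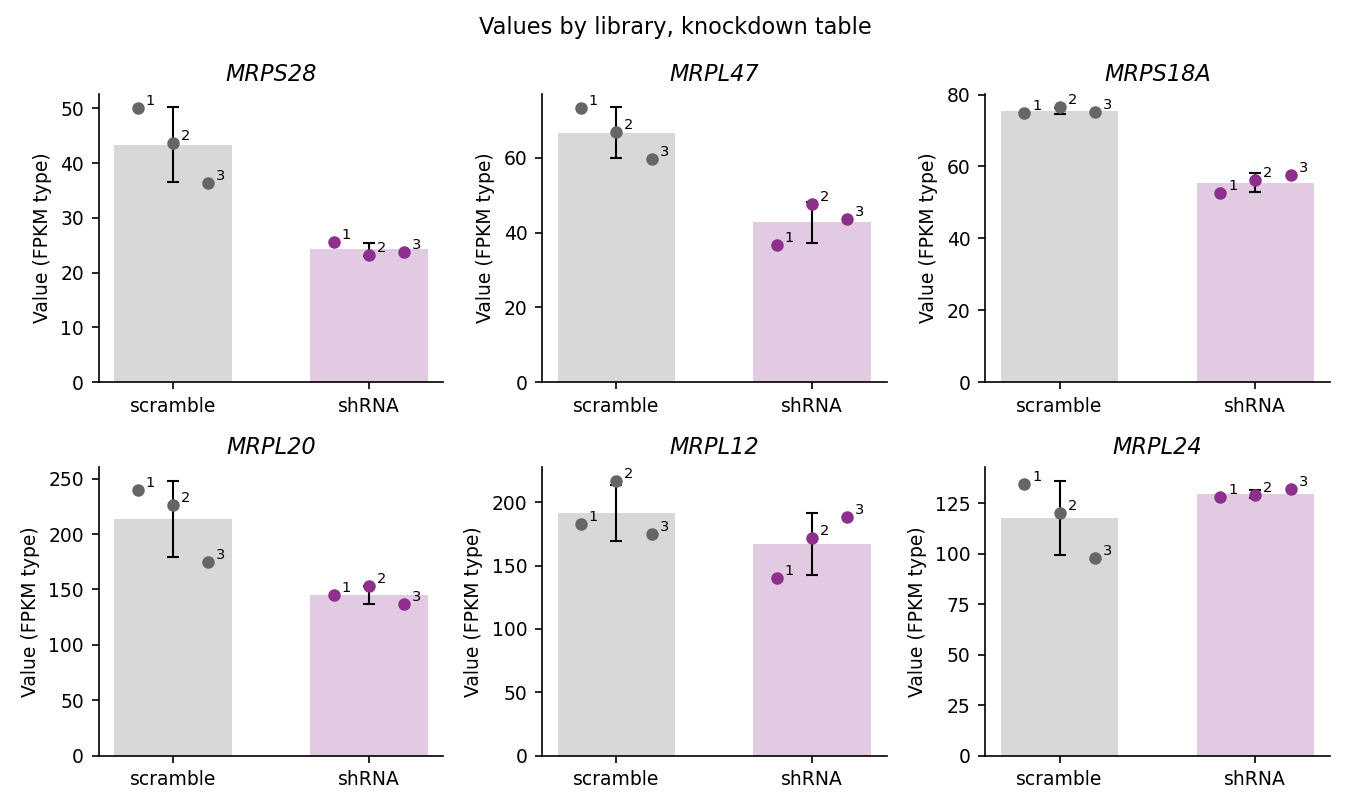
Values (FPKM type, linear axis from 0) of 6 members in the 6 knockdown libraries; points are libraries with their number, bars are group means and whiskers 1 SD (n = 3). MRPS28, MRPL47, MRPS18A and MRPL20 show shRNA points below every scramble point, while in MRPL12 and MRPL24 the groups overlap.

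The large and small subunits stood at the same place. The median log2 fold change was -0.24 over the 48 MRPL genes, with quartiles of -0.33 and -0.17, and -0.24 over the 29 MRPS genes, with quartiles of -0.37 and -0.11. Of the MRPL genes 47 lay below 0 and 1 was called, and of the MRPS genes 26 lay below 0 and 2 were called. Counting MRPS30 and MRPS18A with the large subunit left both medians as they were. The mean log2 level of the large subunit genes exceeded that of the small by 0.28, 0.33 and 0.24 in the scramble libraries and by 0.27, 0.30 and 0.25 in the shRNA libraries, ranges that overlap.

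Members with known places in the particle gave the following values. MRPL12, which forms the flexible stalk that recruits translation factors, had values of 183, 217 and 175 against 140, 172 and 189, which overlap (log2 fold change -0.20; limma adjusted p = 0.432). At the stalk base MRPL11 stood at -0.22, and MRPL10 had 75.8, 74.4 and 74.0 against 73.9, 72.0 and 71.2. The MRPL10 groups did not overlap although the log2 fold change was only -0.05 (limma adjusted p = 0.827), and it turned to 0.0094 under quantile normalisation. Other large subunit proteins with fixed roles were MRPL3, beside the peptidyl transferase centre, at -0.29 with no overlap, MRPL15 at -0.22, MRPL19 at -0.30 with no overlap, MRPL37 at -0.18 and MRPL44 at -0.19, none of which passed.

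Among small subunit genes, MRPS2 stood at a log2 fold change of -0.30 and MRPS7 at -0.38, both without overlap and neither called. MRPS15 stood at -0.19, MRPS22 at -0.16, MRPS34 at -0.24, MRPS27, a protein with pentatricopeptide repeats that bind RNA, at -0.08 and MRPS16 at -0.08. The MRPS18 paralogs spread: -0.44 for MRPS18A, -0.12 for MRPS18B and -0.28 for MRPS18C, and MRPS18A alone of these was called. MRPS18C values ran 43.87, 30.04 and 18.98 in scramble 1 to 3 and 27.71, 24.97 and 19.98 in shRNA 1 to 3, so its scramble libraries spanned more than the difference between groups. MRPS30 stood at -0.11.

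The 4 members above 0 were MRPL24, MRPS14, MRPS25 and MRPS21, and none passed. MRPL24, whose bacterial homolog lies at the tunnel exit, was chosen for mention after its values were seen: 135, 120 and 98.0 with the scramble and 128, 129 and 132 with the shRNA, a log2 fold change of 0.15 (limma adjusted p = 0.538) with overlapping groups. MRPS14, MRPS25 and MRPS21 had log2 fold changes of 0.04, 0.04 and 0.03. MRPL24 was above 0 in each fit without 1 library, and the other 3 were below 0 in at least 1 of them.

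The size of the difference varied with the libraries set side by side. Taking libraries of the same number together, 76 of 77 members were lower in shRNA 1 than in scramble 1, 68 were lower in shRNA 2 than in scramble 2, and 45 were lower in shRNA 3 than in scramble 3. The median log2 differences of these 3 pairs were -0.45, -0.22 and -0.04, while those of all genes tested were 0.05, 0.05 and -0.00063. Scramble 3 was the low control: it held the lowest scramble value of 64 of the 77 members (83.1%), against 25.7% of all genes tested, and its median log2 difference from the mean of the other scramble libraries was -0.26 over the members and 0.08 over all genes tested. Summed over the 77 members, the values were 6746, 6418 and 5352 in the scramble libraries and 4934, 5366 and 5227 in the shRNA libraries, so scramble 3 lay just under shRNA 2. Without scramble 3, 76 of 77 members lay below 0 with a median log2 fold change of -0.33. Without scramble 1 the median was -0.15 and 65 members lay below 0.

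Scramble 3 was also the lowest scramble library for the summed cytosolic ribosomal proteins (125210, 117560 and 87138 in the scramble libraries) and for the summed nuclear subunits of oxidative phosphorylation (16448, 14711 and 11481). The part of this library in the results of the members was not tested beyond the fits without it. MRPL33, chosen after its values were seen, shows how values followed the replicate number: 80.8, 52.6 and 36.4 in scramble 1 to 3 and 78.7, 51.7 and 33.9 in shRNA 1 to 3. Its spread between numbers was wider than any difference between the groups (log2 fold change -0.05; limma adjusted p = 0.942).

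**Figure D3:**
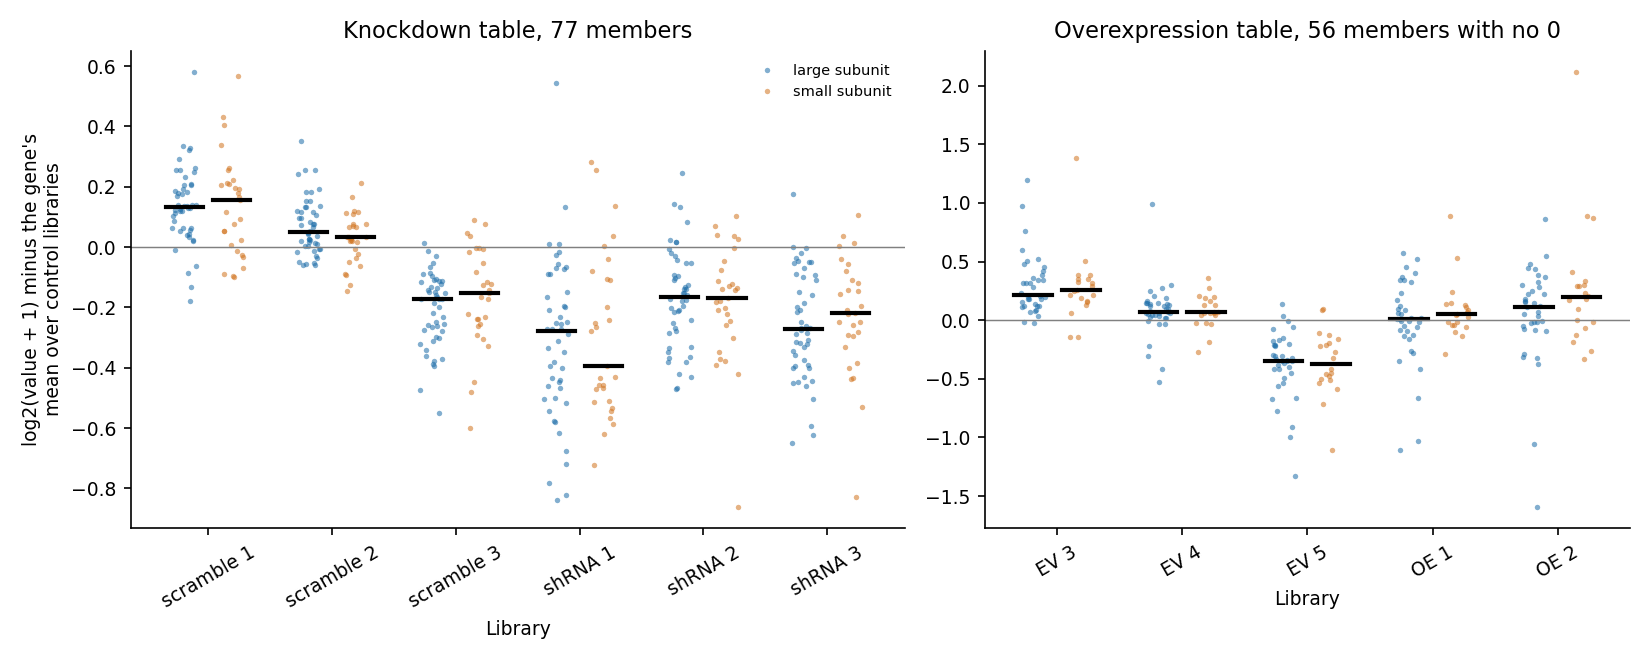
For each library, the log2(value + 1) of each member minus that gene's mean over the control libraries, large and small subunit genes apart, with black bars at medians; knockdown table (77 members) on the left, overexpression table (56 members with no 0) on the right. Scramble 3 lies below the other scramble libraries and EV 5 below the other EV libraries, in both subunits.

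Transcript length was compared because the members are short: the median length of their coding transcripts in GENCODE was 1035 bases, against 1769 over the tested genes with a length (97.0% of 10900). Among the 2645 shortest genes, of 177 to 992 bases, 34 members had a median log2 fold change of -0.30, against 0.03 for all genes of those lengths. Among the next 2645 genes, of 993 to 1769 bases, 36 members had -0.21, against 0.01. In both of these classes the members' median lay below that of genes of like length. Among genes of 1769.5 to 2992 bases 5 members had -0.04, against 0.03, and among longer genes 2 members had -0.30, against 0.06. In the shortest class the median log2 difference of scramble 3 from the mean of the other scramble libraries was -0.35 over the members. Over all genes of that class it was -0.02. The part of transcript length in the results of the members was not tested.

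Other genes of mitochondrial translation were read from lists of the pathway. The 6 other subunits of the particle that lack an MRPL or MRPS symbol were all below 0 (median log2 fold change -0.18), and 0 were called by limma at the adjusted or the unadjusted threshold. GADD45GIP1, a large subunit protein, had 229, 297 and 225 against 142, 220 and 210, with no overlap (log2 fold change -0.41; limma adjusted p = 0.218). ICT1, a large subunit protein that can release stalled peptides, stood at a log2 fold change of -0.18. Of 24 assembly factors 17 lay below 0 and 7 above (median -0.14), with 0 called by limma and 6 at an unadjusted p under 0.05, a share close to the 24.1% of all genes tested. C1QBP, a matrix protein, had 449, 463 and 406 against 249, 377 and 354 with no overlap (log2 fold change -0.45; limma adjusted p = 0.144), and the rRNA methyltransferase RNMTL1 stood at -0.38 (adjusted p = 0.113). Of 17 translation factors 13 lay below 0 (median -0.10), with 0 called by limma and 0 at an unadjusted p under 0.05. The elongation factor TSFM stood at -0.32, and OXA1L, which inserts new proteins into the inner membrane, at 0.20.

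All 8 genes of mitochondrial transcription and replication lay below 0 (median log2 fold change -0.32), with 0 called by limma. At an unadjusted p under 0.05 limma gave 3 (37.5%), all lower, beside 8.74% lower and 15.3% higher of all genes tested. TFB2M, the factor that opens mitochondrial promoters, had 37.5, 32.7 and 31.2 with the scramble and 18.9, 25.2 and 24.1 with the shRNA. Its groups did not overlap (log2 fold change -0.56; limma adjusted p = 0.0511, blocked 0.0351). C10orf2, the mitochondrial helicase Twinkle, stood at -0.46 and TFAM, which packages mitochondrial DNA, at -0.35, neither called.

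Related lists had other medians. Of 78 nuclear subunits of oxidative phosphorylation 42 lay below 0 and 36 above, with a median log2 fold change of -0.01 and 1 called, higher. Of 82 cytosolic ribosomal proteins 6 lay below 0 and 76 above, with a median of 0.16 and 0 called by limma at the adjusted threshold (6 at an unadjusted p under 0.05, 2 of them lower); 3 were called higher with the block. Against these, 73 of 77 members lay below 0. The 9 plasma cell markers lay below 0 as well (median -0.30, 0 called by limma, 1 at an unadjusted p under 0.05). Their sums were 1259, 1381 and 1314.5 in scramble 1 to 3 and 727, 1219 and 1214 in shRNA 1 to 3, so shRNA 1 lay far below the rest. With 1 library left out SDC1, PRDM1, CD38 and SLAMF7 reached log2 fold changes of up to 0.14, 0.11, 0.05 and 0.42, and the other markers stayed below 0. KRT18, an epithelial keratin, had 9.32, 11.1 and 13.0 against 4.93, 4.79 and 5.51 and fell by 0.99 on the log2 scale (limma adjusted p = 0.0137; 0.0651 without scramble 2), while KRT8, the other listed keratin, was at or under 1.68. Sums of the B cell, T cell and myeloid lists were at or under 2.81 in all 6 libraries, with MS4A1 at 0 in the scramble libraries. The part of these markers in the results of the members was not tested.

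**Figure D4:**
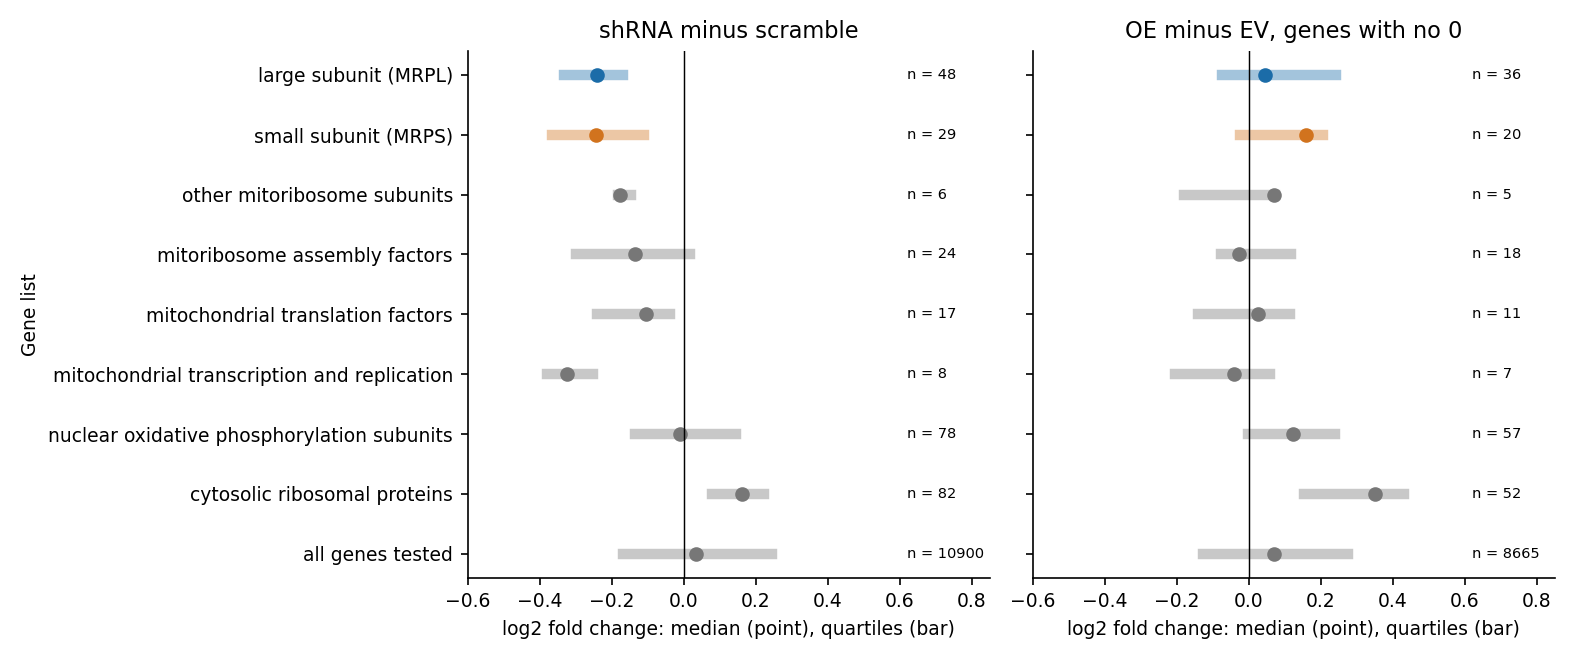
Median (point) and quartiles (bar) of the log2 fold change over each gene list, with n the genes tested; knockdown on the left, overexpression on the right for genes with no 0. In the knockdown panel both subunit lists sit at -0.24 and the cytosolic ribosomal proteins at 0.16.

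Several members share a promoter region with a gene read the other way. Within 1000 bases of the start, 17 of the 68 members with a RefSeq promoter had a tested gene starting on the opposite strand, against 11.7% of the tested genes. MRPL46 and MRPS11 face each other. Of the 15 partners that are no members, 8 lay below 0 and 7 above, and 1 was called: TCP1, a chaperonin subunit that faces MRPL18 at 210 bases, fell by 0.63 ± 0.15 (SE, n = 3 and 3; limma adjusted p = 0.041). Without scramble 1, scramble 2, scramble 3 or shRNA 3 its call ended (adjusted p from 0.0765 to 0.147). TCP1 was chosen after its values were seen. SARS2, the mitochondrial seryl-tRNA synthetase facing MRPS12, had a log2 fold change of 0.24, on the other side of 0 from MRPS12. The members with an ETS match had a median log2 fold change of -0.27 and those without -0.21; for YY1 the medians were -0.26 and -0.23.

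The levels of the members spanned a wide range in these cells. By length-scaled value the highest means in the scramble libraries were MRPL51 at 294 ± 65.7 (SD, n = 3), MRPS34 at 285 ± 51.1, MRPL41 at 273 ± 32.2, MRPL20 at 214 ± 34.5 and MRPS24 at 201 ± 23.4. The first 3 differ by less than their spread, as do MRPL20 and MRPS24. The lowest were MRPL19 at 7.63 ± 0.63, MRPL30 at 10.1 ± 0.91, MRPS25 at 15.5 ± 2.67, MRPL17 at 18.1 ± 2.52 and MRPL42 at 18.7 ± 1.71, of which the last 3 overlap in spread. MRPL19 and MRPL30 were lower in each shRNA library than in each scramble library but were not called (limma adjusted p = 0.229 and 0.249). Pseudogenes named after a member are annotated for 34 of the 77, 75 in all and 8 for MRPS21 alone, so reads of those members may be shared; MRPS28 and MRPL47 have none, and MRPS18A and MRPL20 have 1 each.

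In the authors' deposited table of the knockdown, 65 of the 77 members (84.4%) had the authors' p under 0.05, among them 41 large and 24 small subunit genes. Of all 14458 genes in the authors' deposited table, 61.2% did so.

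In the overexpression table the members' median fold change lay near that of all genes with every library in the fit, and moved to either side of it with 1 left out. Of the 70 tested (MRPS16, at 0 in 4 of 5 libraries, was not), 44 had a log2 fold change above 0 and 26 below, and 59.9% of all 10279 genes tested lay above 0. Among the 56 members with no 0 in any library, 35 lay above 0 and 21 below. The median log2 fold change was 0.10 over the members and 0.09 over all genes tested; under quantile normalisation these became -0.03 and -0.04, with 32 members above 0. No member was called by limma, beside 0.914% of all genes tested. At an unadjusted p under 0.05 stood 5 of the 70 (7.14%; 4 higher, 1 lower), beside 11.5% of all genes tested. Among genes with no 0 in any library, limma called 0 of 56 members and 0.0% of all 8665 genes, of which 1201 had an unadjusted p under 0.05. The groups did not overlap for 10 members higher and 2 lower, against 23.1% and 11.1% of all genes tested. Whether the members respond differently to loss and gain of PHF19 was not tested, since the tables were normalised separately.

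MRPS23, a small subunit protein found in mitochondria only, had 37.5, 43.5 and 44.2 with the empty vector and 60.7 and 76.9 in the OE libraries. Both OE values lay above the 3 controls (log2 fold change 0.70 ± 0.16 SE, n = 3 and 2; limma adjusted p = 0.312). MRPL24 had 116, 122 and 112 against 173 and 162, again with no overlap (log2 fold change 0.52; limma adjusted p = 0.23). MRPL17, homolog of a bacterial protein near the tunnel exit, had 53.0, 53.6 and 55.1 against 25.9 and 17.2. Its log2 fold change of -1.31 ± 0.20 (SE, n = 3 and 2) was the lowest of the members with no 0, and it did not pass (limma adjusted p = 0.153). In the knockdown table MRPL17 stood at -0.04.

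The other members higher without overlap were MRPL23 at 0.46, MRPL55 at 0.46, MRPL43 at 0.42, MRPL37 at 0.35, MRPL41 at 0.28, MRPL4 at 0.24 and MRPS27 at 0.21, all log2 fold changes, and MRPL50, which is listed at 0 in EV 3 and EV 4. MRPL11 was the other one lower without overlap, at -0.37. MRPS21, with 8 named pseudogenes, had 92.8 in OE 1 and 366 in OE 2, farther apart than the group means. Of the 3 members called in the knockdown, MRPS28 is listed in the knockdown table only, and the groups of the other two overlapped: MRPL47 had 140, 72.2 and 35.1 against 76.1 and 54.4, and MRPS18A had 61.6, 53.9 and 30.8 against 50.8 and 62.5. The controls of MRPL47 spanned a wider range than the OE libraries did.

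By subunit, the median log2 fold change was 0.04 for the 46 large subunit genes and 0.18 for the 24 small subunit genes tested, with members listed at 0 included. Among members with no 0 it was 0.04 for 36 large subunit genes and 0.16 for 20 small subunit genes. Among members with no 0, the mean log2 level of the large subunit genes exceeded that of the small by 0.67, 0.65 and 0.63 in the EV libraries and by 0.54 and 0.43 in the OE libraries. The OE values of this difference lay below the EV values; MRPS21 in OE 2 enters it, and it was not tested. EV 5 was the low control, with the lowest EV value of 51 of 58 members (87.9%) against 41.1% of all genes tested. Summed over the 56 members with no 0, the values were 4902, 4408 and 3222 in EV 3 to 5 and 4199 and 4638 in OE 1 and 2, so the OE libraries lay between the controls. Without EV 5, 25 members lay above 0 and 45 below, with a median log2 fold change of -0.08 (0.07 over all genes tested). Without EV 3, 58 lay above 0 and 12 below, with a median of 0.23 (0.09 over all genes tested). Both of these fits include members listed at 0 in a library.

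A value of exactly 0 occurred in 15 members of the overexpression table, 20 times in the EV and 9 times in the OE libraries. MRPS34 was listed at 0, 0 and 177 in EV 3 to 5 and at 0 and 192 in OE 1 and 2, and MRPL28 at 0, 98.7 and 0 and at 0 and 105. MRPL50 was at 0, 0 and 11.6 and then 20.5 and 20.8, and MRPL27 at 0, 50.3 and 0 and then 46.1 and 52.9. MRPL10 was at 76.31, 65.01 and 82.46 and then 76.5 and 0, and MRPL38 at 47.5, 48.1 and 29.8 and then 0 and 47.2. The 0 fell in either group. MRPL2, MRPL18, MRPL30, MRPL40, MRPL46, MRPS10, MRPS16, MRPS17 and MRPS36 showed the same kind of listing. In the knockdown table, normalised separately, the same 15 genes lay between 7.6 and 338 with no 0. What the zeros stand for was not tested, and no fold is given for these genes. Those of them that were tested still enter the counts and medians over all tested members. Leaving out EV 4, EV 5, OE 1 or OE 2 produced 1 called member each time, MRPL27, MRPL50, MRPL10 and MRPL38 in that order, all of them listed at 0 in a library; those fits called 1.06%, 3.27%, 1.23% and 1.02% of all genes tested.

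The genes of the other lists named here as called by limma in the overexpression table were each listed at 0 in all libraries of a group. RBFA, a factor of small subunit maturation, was listed at 0 in the EV libraries and at 4.61 and 8.85 in the OE libraries (adjusted p = 0.0467); without any single library its call ended (0.0603 to 0.178). SDHD, a subunit of complex II, was listed at 0 in the EV libraries and at 101 and 97.5 in the OE libraries (limma adjusted p = 0.000595). The cytosolic ribosomal protein RPL11 was listed at 1933, 1733 and 2006 in the EV libraries and at 0 in both OE libraries (limma adjusted p = 0.000197). PTCD3, a small subunit protein with pentatricopeptide repeats, had 35.5, 37.2 and 44.2 against 27.0 and 26.6, with no overlap (log2 fold change -0.52; limma adjusted p = 0.34). POLG, the mitochondrial DNA polymerase, had 32.1, 34.6 and 35.2 against 22.0 and 26.8 (log2 fold change -0.47; limma adjusted p = 0.362). The nuclear subunits of oxidative phosphorylation with no 0 had 42 genes above 0 and 15 below (median 0.12), and the cytosolic ribosomal proteins with no 0 had 49 above and 3 below (median 0.35), beside 0.08 for the members with no 0.

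In the authors' deposited table of the overexpression, 0 of the 71 members had the authors' p under 0.05, beside 12.9% of all 11062 listed genes. The members' levels kept much the same order in both control groups: Spearman's rho between mean EV and mean scramble values was 0.822 over the 58 members with no 0 in EV libraries, a description across genes, which are not independent and share gene length.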

How the data were processed

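Total RNA from ARP1 cells was sequenced as 11 libraries, per the labels, and the authors deposited 1 expression table per experiment. Per the submitters' processing notes the genome build was hg19 and the aligner TopHat, without a version; which quantifier and annotation were used is not given in the sources here. The deposited values are of the FPKM type: the headers name no unit, so RPKM or TPM remain possible. Both deposited tables also hold the authors' p-values, per the file headers. Sample titles gave the groups, since the genotype tags of all knockdown-table samples speak of overexpression. The letter at the end of the library description differs between EV and OE, and its meaning and the group cannot be told apart. The tables were normalised separately and compared only within themselves. Nothing states separate cultures, so p-values measure the spread between these samples, which may be technical.

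Values entered limma 3.58.1 (R 4.3.3) as log2(value + 1), with trended, robust variances, for genes of at least 1 in as many libraries as the smaller group, two-sided, with Benjamini-Hochberg adjustment and a threshold of 0.05. The pseudocount makes folds of low genes too small. The method was tested on simulated data, built from genes with no 0 and with noise independent between genes and libraries. That simulation held no pairing and no shift shared by a library, so it does not bear on those features here. Same-numbered scramble and shRNA libraries deviated together (correlations of 0.341, 0.27 and 0.273 across genes, against -0.277 to 0.0936 for other pairs), so the numbers pair the samples by the data, and a fit with the number as a block was run as an alternative. The main knockdown fit and the fits with a library left out used no block, so they ignore this pairing. Other alternatives were the scaling, filter, pseudocount, variance model, library weights, threshold, subunit assignment and each library left out. Members and lists were chosen with earlier results of these data known. Named were PHF19, called members, the 10 largest changes each way without overlap, the 5 highest and 5 lowest members, a role list, members with a 0, and per pathway list the called genes or the smallest adjusted p values; other genes named are outside this rule, and 1 called gene of the comparison lists is not reported here. Promoters came from RefSeq (GRCh38.p14, another build than the files), and transcript lengths and pseudogenes from GENCODE 29, both matched by symbol.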

Additional observations from a re-analysis of the deposited data

How the results depend on the processing

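In the knockdown the median log2 fold changes of both subunits kept their sign in each alternative run, from -0.15 to -0.35 for the large subunit and -0.17 to -0.31 for the small. The 3 called members became 32 with library weights, 1 with no filter on low values, 0 and 7 at adjusted p thresholds of 0.01 and 0.1, and 0 to 3 with 1 library left out; the 601 called genes became 3161, 269, 41 and 1267, and 65 to 636. With the replicate block, which uses the pairing by number, 6 members and 1295 genes were called. No paired analysis was possible for overexpression because EV and OE share no replicate number.

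Of single members, MRPL10 turned to 0.0094 under quantile normalisation, and MRPS27 and MRPS30 to 0.0137 and 0.0422 with library weights. With 1 library left out MRPS14 ran from -0.015 to 0.126, MRPS16 from -0.127 to 0.0049, MRPS27 from -0.154 to 0.0171, MRPS30 from -0.216 to 0.0719 and MRPS18C from -0.578 to 0.0061. Likewise MRPS25 ran from -0.05 to 0.17, MRPS21 from -0.19 to 0.20, MRPL17 from -0.12 to 0.06, MRPL33 from -0.35 to 0.24, MRPL41 from -0.13 to 0.04 and MRPS11 from -0.12 to 0.10.

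With overexpression, the 94 called genes became 36 with a filter at 5, 1729 with library weights, 61 with a pseudocount of 0.1, 0 among genes with no 0, and 103 to 336 with 1 library left out. The 0 called members became 7 with library weights and 0 to 1 with 1 library left out. The large subunit median of 0.04 turned to -0.0537 with library weights, -0.0319 with median-of-ratios scaling and -0.110 with quantile normalisation, and ran from -0.118 to 0.217 with 1 library left out; the small subunit median ran from -0.0321 to 0.285. The negative ends were both without EV 5. Where a count moved, the cause was not tested. With 2 or 3 libraries a group and unknown depth, changes of the size seen in most members are close to the spread between libraries.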
